A study of Mus musculus with 16 samples.

Results

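The expression of 9 genes of the transforming growth factor beta (TGF-beta) pathway was followed in mouse hepatocytes across all 5 groups of the series, out of 54532 genes in the expression table. The 9 genes were taken by name, with earlier results of these data known. They comprise the ligand genes Tgfb1, Tgfb2 and Tgfb3 and the receptor genes Tgfbr1 and Tgfbr2. The others are the signal transducer Smad3, the feedback inhibitors Smad7 and Skil, and the matrix gene Thbs1. RNA sequencing covered 16 libraries of hepatocytes, which the labels list as a mouse hepatocyte cell line, in a series on how serine from hepatocytes serves pancreatic cancer that spreads to the liver. Hepatocytes were cultured with Phgdh knockout (KO) cancer cells and a CXCR2 inhibitor (n = 4), with Phgdh wild-type (WT) cancer cells and the inhibitor (n = 3), with KO cancer cells (n = 3), with WT cancer cells (n = 3), or alone (monoculture, n = 3). The Phgdh enzyme begins the cell's own serine synthesis, the KO is in the cancer cells and not in the hepatocytes, and CXCR2 is a receptor for neutrophil-attracting chemokines. The labels give no inhibitor name, dose, vehicle, duration, culture format or way of separating the cells, and no hepatocytes received the inhibitor without cancer cells. The series' design text names cancer cells (HY19636) as the sequenced material, whereas every sample label names hepatocytes, and the labels were followed.

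TGF-beta ligands are secreted in a latent form, are released by integrins, proteases and thrombospondin, and bind the type II receptor, which recruits and activates the type I receptor. The type I receptor phosphorylates SMAD2 and SMAD3, which enter the nucleus with SMAD4 and switch target genes, among them genes for the pathway's own inhibitors SMAD7 and SnoN (encoded by Skil). In liver the pathway is known for holding back hepatocyte proliferation and for driving fibrosis.

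In co-culture without the inhibitor, Tgfbr1, Tgfb3, Thbs1, Smad7, Skil and Tgfbr2 were all lower than in monoculture, and Smad3 was higher. With the inhibitor, Tgfbr1, Tgfbr2, Smad7, Skil and Thbs1 were higher than in the same co-culture without it, and Tgfb1 and Smad3 were lower. The receptors went past their monoculture levels with the inhibitor, Thbs1 stayed under its own, and Tgfb3 stayed near its low co-culture level. Of the 8 genes that could be tested, 0 passed by limma between KO and WT co-culture, where 2.99% of all genes did. With the inhibitor 1 passed, Tgfb3, where 2.31% of all genes did.

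Libraries held 15.002 to 21.3 M recovered fragments, and values are FPKM as deposited, fragments per kilobase of gene and per M fragments. The divisor behind them was not exactly the recovered total, as given under the processing. A gene was tested if its mean over the 16 libraries reached 1 FPKM, which 11395 genes did. Of the 9 genes 8 passed this filter, and Tgfb2 (mean 0.700 FPKM) did not. Fold changes are on the log2(FPKM + 1) scale, which understates the change of low genes, and were tested with limma, with p adjusted over all genes tested and called under 0.05. All 10 hepatocyte markers examined were above 0 in at least 1 library of every group. Cps1 averaged 0.0975 and Apoa1 0.494 FPKM in WT co-culture, and Tat 0.409 FPKM in monoculture. Msln and Krt19, markers of pancreatic cancer or biliary epithelium, averaged 201 and 96.9 FPKM in monoculture. The highest hepatocyte marker there, Ttr, averaged 87.7 FPKM. Mean Msln exceeded every hepatocyte marker in each group but KO co-culture with the inhibitor, where Alb averaged 461 and Msln 365 FPKM. Which cells these markers came from was not tested. Markers of macrophages, stellate cells, endothelial cells and neutrophils summed to at most 5.75, 0.285, 0.207 and 0.422 FPKM in any library, and 7 of the 10 macrophage markers were at 0 in all groups. Cxcr2, itself a neutrophil marker, was at 0 in all libraries of monoculture, WT co-culture and KO co-culture with the inhibitor. It averaged 0.0242 FPKM in KO co-culture and at most 0.0597 FPKM in WT co-culture with the inhibitor. Whether the inhibitor acted through CXCR2 on the hepatocytes was not tested. WT co-culture replicate 1 stood apart on the third principal component (20.1, against -10.2 to 7.71 in the other libraries). Of the 24 tested fold changes that compare WT co-culture with another group, 1 changed its call without that library, as given below for Tgfb1. After ±, FPKM means have their SD and log2 fold changes their SE. Whether replicates came from separate cultures is not in the labels, and p-values therefore reflect only how far these libraries spread.

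Positions are those of the mouse genome build GRCm38, in which Smad3 and Tgfbr2 share chromosome 9. Tgfb1 (ENSMUSG00000002603) spans chromosome 7 from 25687002 to 25705077, Tgfb2 (ENSMUSG00000039239) chromosome 1 from 186622792 to 186705989, and Tgfb3 (ENSMUSG00000021253) chromosome 12 from 86056745 to 86079041. Tgfbr1 (ENSMUSG00000007613) spans chromosome 4 from 47353222 to 47414931 and Tgfbr2 (ENSMUSG00000032440) chromosome 9 from 116084293 to 116175360. Smad3 (ENSMUSG00000032402) lies on chromosome 9 from 63646767 to 63757994, Skil (ENSMUSG00000027660) on chromosome 3 from 31095058 to 31122577 and Thbs1 (ENSMUSG00000040152) on chromosome 2 from 118111876 to 118127133. All 9 are annotated as protein coding.

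Promoter windows from 250 bases before to 50 bases after the transcription start were available from RefSeq (GRCm38.p6) for 5 of the 9 genes. The windows of both receptors are printed because these genes were higher together with the inhibitor, and those of Tgfb1 and Tgfb2 because these ligands moved apart. They are written 5′ to 3′ on the strand of the gene. Capitals mark matches on either strand to 4 short motifs: the SMAD-binding element CAGAC, the GC box GGGCGG, the TATA box TATAAA and the E-box CACGTG.
Tgfbr1, chr4:47352972-47353271, plus strand: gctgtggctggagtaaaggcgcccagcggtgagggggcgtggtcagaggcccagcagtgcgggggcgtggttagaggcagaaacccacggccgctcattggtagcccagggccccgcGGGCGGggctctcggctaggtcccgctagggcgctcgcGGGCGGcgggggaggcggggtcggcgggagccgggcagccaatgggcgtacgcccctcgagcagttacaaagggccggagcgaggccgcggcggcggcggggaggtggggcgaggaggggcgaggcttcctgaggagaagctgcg
Tgfbr2, chr9:116175314-116175613, minus strand: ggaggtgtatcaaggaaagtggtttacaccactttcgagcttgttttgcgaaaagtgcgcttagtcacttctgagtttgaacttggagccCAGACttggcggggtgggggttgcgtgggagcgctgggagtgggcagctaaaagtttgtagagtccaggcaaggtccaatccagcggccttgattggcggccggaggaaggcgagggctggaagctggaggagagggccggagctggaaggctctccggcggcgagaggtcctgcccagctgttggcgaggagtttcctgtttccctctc
Tgfb1, chr7:25686752-25687051, plus strand: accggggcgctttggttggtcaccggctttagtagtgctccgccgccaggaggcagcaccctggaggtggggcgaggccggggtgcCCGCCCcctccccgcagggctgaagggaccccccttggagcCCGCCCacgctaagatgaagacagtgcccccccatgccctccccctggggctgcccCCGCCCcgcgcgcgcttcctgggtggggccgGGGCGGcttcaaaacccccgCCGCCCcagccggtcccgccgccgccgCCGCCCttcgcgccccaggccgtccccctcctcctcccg
Tgfb2, chr1:186705940-186706239, minus strand: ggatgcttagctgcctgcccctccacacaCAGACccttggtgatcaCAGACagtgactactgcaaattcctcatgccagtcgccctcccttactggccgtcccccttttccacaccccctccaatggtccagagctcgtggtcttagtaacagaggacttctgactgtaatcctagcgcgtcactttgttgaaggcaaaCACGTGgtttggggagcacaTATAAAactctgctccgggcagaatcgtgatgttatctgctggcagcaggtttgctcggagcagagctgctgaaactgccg
The Tgfbr1 window holds 2 GC boxes and no other motif, with 74.7% G and C. The Tgfbr2 window holds 1 SMAD-binding element and no other motif, with 59.0% G and C. The Tgfb1 window holds 6 GC boxes alone at 77.0% G and C, and the Tgfb2 window 2 SMAD-binding elements, 1 TATA box and 1 E-box without a GC box at 54.3%. Of 32851 RefSeq promoter windows of the same length, 49.6% hold the SMAD-binding element, 35.7% the GC box, 13.6% the TATA box and 7.15% the E-box. No 2 matches overlap in these windows, and a match describes letters and not a bound site.

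**Figure D1:**
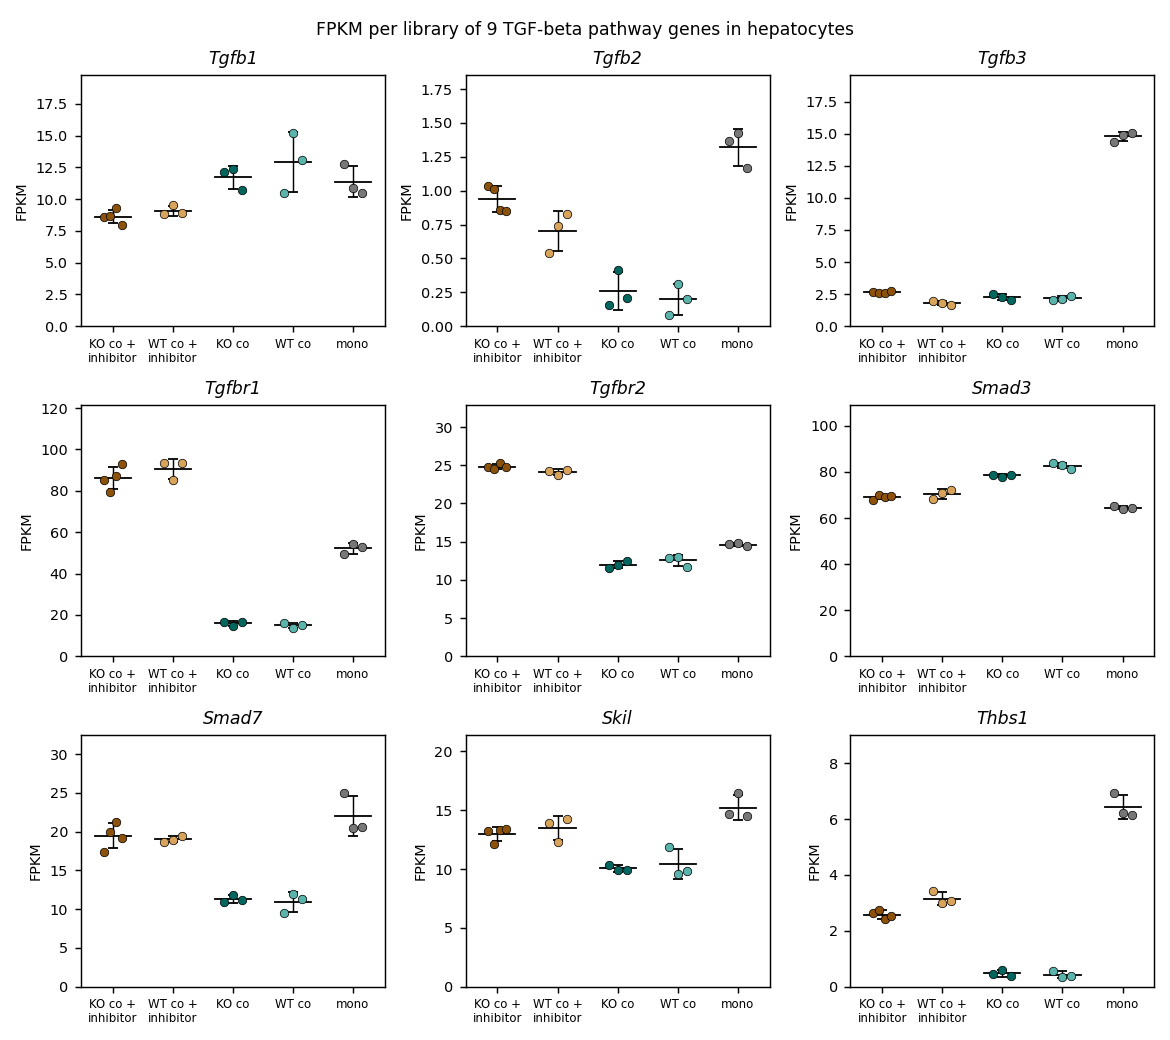
FPKM (vertical axes, from 0, one panel per gene) of the 9 genes in every library, by group from KO co-culture with the inhibitor on the left to monoculture on the right; points are libraries, horizontal lines group means and bars ± SD. Tgfbr1 ran from 79.6 to 93.5 FPKM in co-culture with the inhibitor and from 13.6 to 16.6 FPKM in co-culture without it, and Tgfb3 was at or under 2.74 FPKM in every co-culture against 14.4 FPKM or more in monoculture.

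The ligand genes differed most in Tgfb3. Tgfb3 encodes the ligand TGF-beta 3, and read 2.63, 2.58, 2.56 and 2.74 FPKM in KO co-culture with the inhibitor and 1.95, 1.83 and 1.67 FPKM in WT co-culture with it. It read 2.49, 2.27 and 2.01 FPKM in KO co-culture, 2.00, 2.15 and 2.38 FPKM in WT co-culture, and 14.4, 14.9 and 15.1 FPKM in monoculture. Every co-culture library lay far below every monoculture library, and no group of co-cultures came near the monoculture range. Tgfb3 fell in KO co-culture (log2 fold change -2.28 ± 0.06, adjusted p = 4.44e-13 by limma) and in WT co-culture (-2.31 ± 0.06, adjusted p = 3.35e-13) relative to monoculture, ratios of means of 6.55 and 6.79 towards monoculture. In bulk RNA, fewer cells that transcribe a gene and less RNA per cell cannot be told apart, which holds for all results here.

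Tgfb3 was the one gene whose small inhibitor effects had opposite signs by genotype. With KO cells it was higher with the inhibitor (0.16 ± 0.06, adjusted p = 0.0270 by limma), and with WT cells lower (-0.18 ± 0.06, adjusted p = 0.0239), with no overlap of libraries in either pair. The KO value rested on single libraries: without KO co-culture replicate 3 it was 0.10 (adjusted p = 0.153), and the call also ended without KO co-culture replicate 2 (adjusted p = 0.0545) or KO replicate 4 with the inhibitor (adjusted p = 0.0635). It lost its call and its sign under quantile normalization (-0.0088, adjusted p = 0.904). The WT value lost its call without WT co-culture replicate 3 (adjusted p = 0.113) or WT replicate 3 with the inhibitor (adjusted p = 0.102). The difference between both inhibitor effects was 0.33 ± 0.09 and did not pass (adjusted p = 0.105).

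Tgfb1 encodes TGF-beta 1, the ligand best known in liver injury. It read 8.56, 8.70, 9.27 and 8.002 FPKM in KO co-culture with the inhibitor and 8.83, 9.52 and 8.90 FPKM in WT co-culture with it. It read 12.1, 12.4 and 10.7 FPKM in KO co-culture, 10.5, 15.2 and 13.1 FPKM in WT co-culture, and 12.8, 10.9 and 10.5 FPKM in monoculture. All 7 libraries with the inhibitor lay below all 9 without it, while the 3 groups without the inhibitor overlapped one another. WT co-culture replicate 1 was the lowest of its group. Tgfb1 fell with the inhibitor beside KO cells (log2 fold change -0.40 ± 0.10, adjusted p = 0.00219 by limma) and beside WT cells (-0.45 ± 0.10, adjusted p = 0.00155). Against monoculture it was 0.04 ± 0.10 in KO co-culture (adjusted p = 0.743) and 0.16 ± 0.10 in WT co-culture (adjusted p = 0.195), neither of which passed. Without WT co-culture replicate 1 the WT value was 0.29 and passed (adjusted p = 0.00985).

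Tgfb2, the third ligand gene, was low throughout, and its values rest on few fragments. It read 1.03, 1.01, 0.856 and 0.853 FPKM in KO co-culture with the inhibitor and 0.540, 0.739 and 0.828 FPKM in WT co-culture with it. It read 0.153, 0.417 and 0.210 FPKM in KO co-culture, 0.0858, 0.310 and 0.198 FPKM in WT co-culture, and 1.36, 1.43 and 1.17 FPKM in monoculture. The groups held 438, 201, 91, 66 and 405 fragments in the same order. Every library without the inhibitor in co-culture lay below every library with it, and all co-cultures lay below monoculture. The monoculture mean was 5.07 times the KO co-culture mean and 6.67 times the WT co-culture mean. With the inhibitor the mean was 3.61 times that without it beside KO cells and 3.55 times beside WT cells. Exact two-sided permutation tests over libraries gave p = 0.0571 for the KO inhibitor comparison and p = 0.1 for the other 3, the smallest p that 4 against 3 and 3 against 3 libraries allow.

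**Figure D2:**
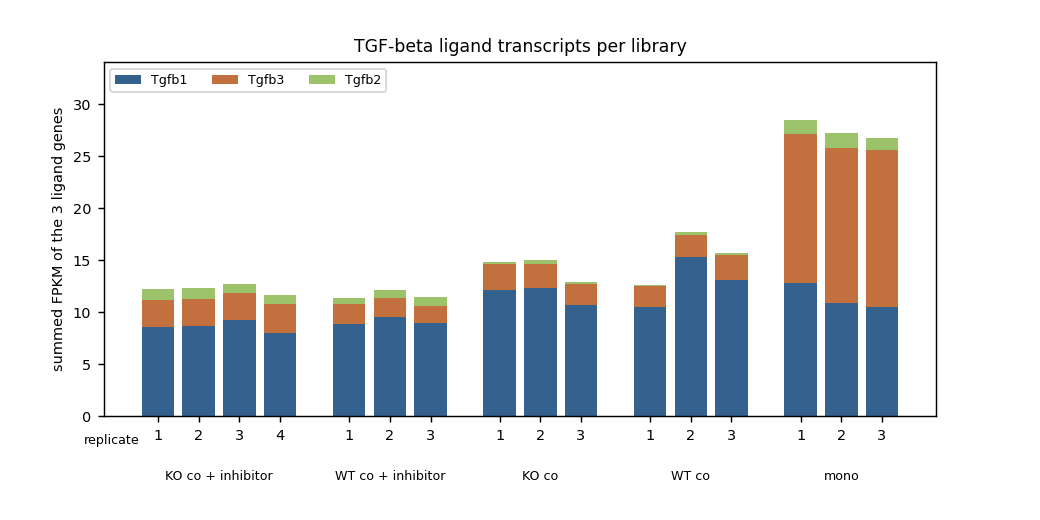
Summed FPKM of the 3 ligand genes (vertical axis, from 0) in each of the 16 libraries, stacked by gene, with groups from KO co-culture with the inhibitor on the left to monoculture on the right. Tgfb3 makes up 12.2 to 23.6% of the sum in the co-cultures, where Tgfb1 leads, and 50.5 to 56.4% in monoculture. The shares depend on the gene lengths used for FPKM.

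FPKM divides by the gene length given with the values, 5042, 5791 and 3383 bases for Tgfb1, Tgfb2 and Tgfb3. Sums and shares of the ligands depend on these lengths, and which transcripts were expressed was not examined. In monoculture, Tgfb1 held 1098, 873 and 1083 fragments and Tgfb3 831, 804 and 1044. Tgfb3 thus leads there only after division by length. The summed ligand level was 12.2 ± 0.454 FPKM in KO co-culture with the inhibitor, 11.6 ± 0.424 in WT co-culture with it, 14.2 ± 1.16 in KO co-culture, 15.3 ± 2.59 in WT co-culture and 27.5 ± 0.909 in monoculture (SD, n = 4 for the first group and 3 for the others). Monoculture was the highest in every library. Tgfb1 led in each co-culture group, with 70.7, 78.3, 82.3 and 84.3% of the sum in the same order, and had 41.3% in monoculture. Tgfb3 had 21.6, 15.7, 15.8 and 14.4% in the co-cultures and led in monoculture with 53.9%. Tgfb2 contributed 7.70, 6.05, 1.81 and 1.23% in the co-cultures and 4.80% in monoculture.

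Both receptor genes were higher with the inhibitor than in any other group. Tgfbr1 encodes the type I receptor kinase ALK5, and read 85.4, 79.6, 87.2 and 92.7 FPKM in KO co-culture with the inhibitor and 93.5, 85.1 and 93.5 FPKM in WT co-culture with it. It read 16.6, 14.6 and 16.4 FPKM in KO co-culture, 16.2, 13.6 and 15.1 FPKM in WT co-culture, and 49.4, 54.3 and 53.1 FPKM in monoculture. Its libraries formed 3 separate levels, with the inhibitor on top, monoculture between and co-culture without it at the bottom, and within each level KO and WT overlapped. Tgfbr1 rose with the inhibitor beside KO cells (log2 fold change 2.37 ± 0.07, adjusted p = 3.37e-13 by limma, ratio of means 5.43) and beside WT cells (2.52 ± 0.07, adjusted p = 4.18e-13, ratio 6.06). It fell relative to monoculture in KO co-culture (-1.66 ± 0.07) and in WT co-culture (-1.74 ± 0.07), with adjusted p = 4.13e-11 and 2.29e-11.

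Tgfbr2 encodes the type II receptor, which binds the ligand first. It read 24.8, 24.5, 25.3 and 24.7 FPKM in KO co-culture with the inhibitor and 24.3, 23.7 and 24.4 FPKM in WT co-culture with it. It read 11.6, 11.9 and 12.5 FPKM in KO co-culture, 12.9, 13.1 and 11.7 FPKM in WT co-culture, and 14.6, 14.9 and 14.4 FPKM in monoculture. The order of the levels was that of Tgfbr1 but the gap between co-culture and monoculture was narrow, with no overlap. With the inhibitor Tgfbr2 rose beside KO cells (0.99 ± 0.04, adjusted p = 1.50e-11 by limma) and beside WT cells (0.89 ± 0.04, adjusted p = 1.17e-10). It fell by 0.27 in KO co-culture (adjusted p = 6.84e-05) and by 0.21 in WT co-culture (adjusted p = 5.98e-04) on the log2 scale relative to monoculture.

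Since the type I gene moved more than the type II gene, their ratio also differed between groups. Tgfbr1 FPKM divided by Tgfbr2 FPKM was 3.47 ± 0.203 in KO co-culture with the inhibitor, 3.76 ± 0.142 in WT co-culture with it, 1.33 ± 0.105 in KO co-culture, 1.20 ± 0.135 in WT co-culture and 3.57 ± 0.176 in monoculture (SD, n = 4 for the first group and 3 for the others). The ratio in monoculture thus lay within the range of the inhibitor groups, and co-culture without the inhibitor lay below both, at 1.04 to 1.44. Summed cell markers followed the receptors in their order of groups, while single markers did not all do so. The summed FPKM of the 10 markers of pancreatic cancer or biliary epithelium ran from 619.9 to 647 in KO co-culture with the inhibitor, 646 to 691 in WT co-culture with it, 241 to 259 in KO co-culture, 246 to 275 in WT co-culture and 341 to 357 in monoculture. It was led by Msln in every group, and Agr2 and Tff1 were at 0 in all groups. The sum of the 10 hepatocyte markers was likewise highest with the inhibitor, where Alb and Ttr led it, and lowest in co-culture without it. It was 966 to 1020.0, 741 to 754, 148 to 152, 125 to 129.8 and 249.8 to 257 FPKM in the same order of groups. Single hepatocyte markers also departed from this order. Apob averaged 44.5 and 42.1 FPKM in the KO and WT inhibitor groups and 47.8 FPKM in monoculture. Hnf4a averaged 49.8 FPKM in WT co-culture and 46.6 FPKM in monoculture. The part of these markers in the receptor result was not tested.

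Smad3 encodes the transducer that the activated receptor phosphorylates, and had the highest mean FPKM of the 9 genes outside the inhibitor groups. It read 67.9, 70.1, 69.2 and 69.5 FPKM in KO co-culture with the inhibitor and 68.1, 71.0 and 72.3 FPKM in WT co-culture with it. It read 78.8, 77.8 and 78.8 FPKM in KO co-culture, 84.0, 82.9 and 81.4 FPKM in WT co-culture, and 65.0, 63.8 and 64.5 FPKM in monoculture. It was highest in co-culture without the inhibitor and lowest in monoculture, with the inhibitor groups between and no overlap between these 3 levels. Smad3 rose relative to monoculture in KO co-culture (log2 fold change 0.28 ± 0.03, adjusted p = 1.25e-06 by limma) and in WT co-culture (0.36 ± 0.03, adjusted p = 8.61e-08). With the inhibitor it fell by 0.18 beside KO cells (adjusted p = 4.42e-05) and by 0.23 beside WT cells (adjusted p = 8.54e-06) on the log2 scale.

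Smad7 (ENSMUSG00000025880, chromosome 18, 75367529 to 75395935) encodes an inhibitory SMAD that occupies the type I receptor and is induced by the pathway itself. It read 17.4, 19.9, 21.3 and 19.2 FPKM in KO co-culture with the inhibitor and 18.7, 19.0 and 19.5 FPKM in WT co-culture with it. It read 10.9, 11.8 and 11.2 FPKM in KO co-culture, 9.49, 12.0 and 11.4 FPKM in WT co-culture, and 25.0, 20.4 and 20.7 FPKM in monoculture. Co-culture without the inhibitor stood below all other libraries, and the KO inhibitor range overlapped monoculture. Smad7 fell in KO co-culture (-0.90 ± 0.09, adjusted p = 5.51e-07 by limma) and in WT co-culture (-0.95 ± 0.09, adjusted p = 2.94e-07) relative to monoculture. With the inhibitor it rose by 0.73 ± 0.08 beside KO cells (adjusted p = 1.90e-06) and by 0.75 ± 0.09 beside WT cells (adjusted p = 3.03e-06).

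Skil encodes SnoN, a corepressor of SMAD complexes whose transcription the pathway induces. It read 13.2, 12.1, 13.3 and 13.4 FPKM in KO co-culture with the inhibitor and 13.9, 12.3 and 14.3 FPKM in WT co-culture with it. It read 10.3, 9.87 and 9.92 FPKM in KO co-culture, 11.9, 9.55 and 9.84 FPKM in WT co-culture, and 14.7, 16.5 and 14.5 FPKM in monoculture. Its libraries formed 3 levels, with monoculture on top and co-culture without the inhibitor at the bottom, with no overlap between levels. Skil fell in KO co-culture (-0.55 ± 0.08, adjusted p = 1.65e-05 by limma) and in WT co-culture (-0.51 ± 0.08, adjusted p = 3.53e-05) relative to monoculture. With the inhibitor it rose by 0.34 ± 0.07 beside KO cells (adjusted p = 5.85e-04) and by 0.35 ± 0.08 beside WT cells (adjusted p = 8.89e-04).

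Thbs1 encodes thrombospondin 1, a matrix protein that can activate latent TGF-beta and is a target of the pathway. It read 2.64, 2.75, 2.41 and 2.52 FPKM in KO co-culture with the inhibitor and 3.43, 2.98 and 3.05 FPKM in WT co-culture with it. It read 0.438, 0.601 and 0.374 FPKM in KO co-culture, 0.552, 0.330 and 0.393 FPKM in WT co-culture, and 6.93, 6.22 and 6.16 FPKM in monoculture. Monoculture, co-culture with the inhibitor and co-culture without it did not overlap. Thbs1 fell in KO co-culture (-2.34 ± 0.08, adjusted p = 3.18e-12 by limma) and in WT co-culture (-2.39 ± 0.08, adjusted p = 2.45e-12) relative to monoculture, which had 13.7 and 15.1 times their means. With the inhibitor it rose by 1.29 ± 0.07 beside KO cells (adjusted p = 9.56e-10) and by 1.54 ± 0.08 beside WT cells (adjusted p = 3.02e-10). The low co-culture values rest on 38 to 77 fragments per library. With voom weights on recovered fragments, a log scale without the added 1 FPKM, the 4 values were -3.73, -3.92, 2.50 and 2.97 in the same order.

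**Figure D3:**
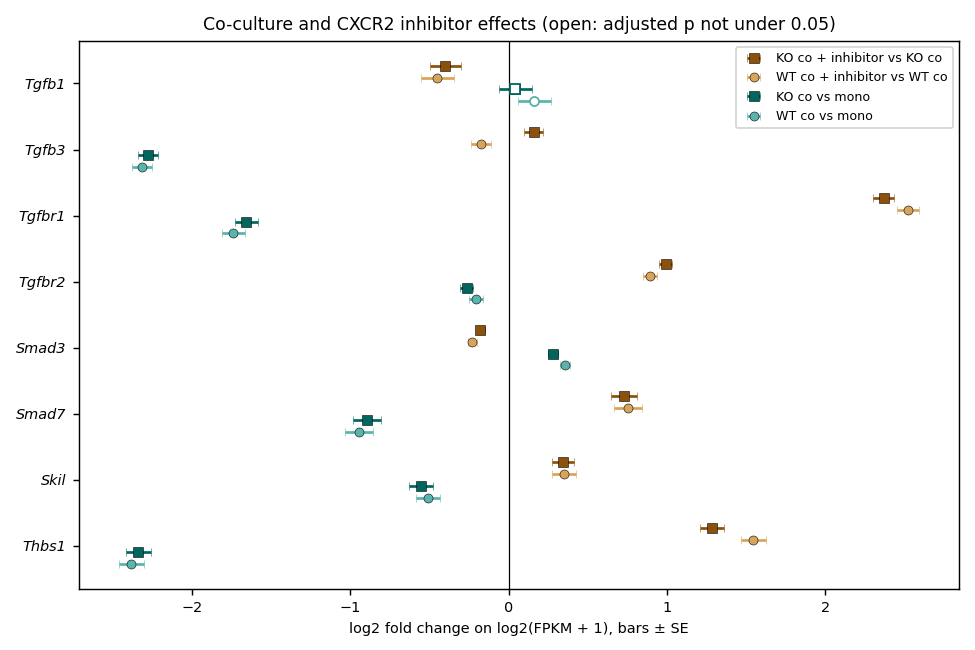
Log2 fold changes on the log2(FPKM + 1) scale (horizontal axis, bars ± SE) of the 8 tested genes for the inhibitor in KO and in WT co-culture and for KO and WT co-culture against monoculture; open symbols mark an adjusted p of 0.05 or more. Tgfbr1, Tgfbr2, Smad7, Skil and Thbs1 lie right of 0 for the inhibitor and left of 0 for co-culture, Smad3 the other way round, and Tgfb3 near 0 for the inhibitor, where the KO value turned to -0.0088 under quantile normalization.

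Over the 8 tested genes, 1 rose, 6 fell and 1 did not pass in KO co-culture against monoculture, where 61.5% of all genes tested were called, 30.3% higher and 31.2% lower. The counts were also 1, 6 and 1 in WT co-culture against monoculture, with 62.0% of all genes called, 30.1% higher and 31.9% lower. The median log2 fold change of the 8 genes was -0.72 in KO and -0.73 in WT co-culture, beside 0.012 and 0.0062 over all genes. Both comparisons share the monoculture libraries, and the inhibitor comparisons share the co-culture libraries with them. With the inhibitor beside KO cells 6 rose and 2 fell, where 69.5% of all genes were called, 34.8% higher and 34.7% lower. Beside WT cells 5 rose and 3 fell, where 66.6% were called, 33.5% higher and 33.0% lower. The medians were 0.53 beside KO and 0.55 beside WT cells, beside -0.012 and -0.0072 over all genes. Most genes of the table were called in these comparisons, so the number of calls alone does not set these genes apart.

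Setting the inhibitor co-cultures beside monoculture shows where each gene stood relative to hepatocytes cultured alone. Without hepatocytes given the inhibitor alone, a return from the co-culture level and a separate effect of the inhibitor cannot be told apart. Tgfbr1 was above monoculture in KO co-culture with the inhibitor (log2 fold change 0.71 ± 0.07, adjusted p = 2.32e-07 by limma) and in WT co-culture with it (0.78 ± 0.07, adjusted p = 1.98e-07). Tgfbr2 was above it by 0.72 ± 0.04 (adjusted p = 5.52e-10) in the KO and 0.69 ± 0.04 (adjusted p = 2.64e-09) in the WT inhibitor group. Smad3 was also above it, by 0.10 ± 0.03 (adjusted p = 0.00515) in the KO and 0.13 ± 0.03 (adjusted p = 0.00167) in the WT inhibitor group. Under quantile normalization these Smad3 values were 0.24 and 0.27. Tgfb3 was lower than in monoculture by the widest margin, -2.12 ± 0.06 in the KO and -2.49 ± 0.06 in the WT inhibitor group, and Thbs1 followed with -1.05 ± 0.07 and -0.84 ± 0.08.

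Smad7 did not pass against monoculture in either inhibitor group, at -0.17 ± 0.08 beside KO cells (adjusted p = 0.0820 by limma) and -0.19 ± 0.09 beside WT cells (adjusted p = 0.0653), and without 1 library the call could be gained (KO replicate 3 with the inhibitor left out, adjusted p = 0.0426; monoculture replicate 2 left out of the WT comparison, adjusted p = 0.0448). Tgfb1 fell by 0.36 beside KO cells (adjusted p = 0.00476) and by 0.29 beside WT cells (adjusted p = 0.0243). The WT value lost its call without monoculture replicate 1 (adjusted p = 0.113), WT inhibitor replicate 1 (adjusted p = 0.0658) or WT inhibitor replicate 3 (adjusted p = 0.0622). Skil fell by 0.21 beside KO cells (adjusted p = 0.0155), a call lost without monoculture replicate 2 (adjusted p = 0.0880), and was -0.16 ± 0.08 beside WT cells (adjusted p = 0.0729). In all, 3 rose, 4 fell and 1 did not pass in the KO inhibitor group, where 69.4% of all genes were called, 33.3% higher and 36.1% lower. In the WT inhibitor group 3 rose, 3 fell and 2 did not pass, where 66.8% were called, 32.1% higher and 34.7% lower. In that last comparison 48.1% of the calls over all genes were higher, and 58.2% when libraries were scaled without mitochondrial and the top 50 genes.

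Between KO and WT co-culture, 0 of the 8 tested genes passed by limma, where 2.99% of all genes did, 1.65% higher and 1.34% lower. The count by voom weights on recovered fragments was also 0, and 1 gene had an unadjusted p under 0.05 by either method, which in the limma fit was Smad3. Smad3 was lower beside KO cells, with no overlap of libraries (log2 fold change -0.08 ± 0.03, adjusted p = 0.242). The other 7 lay between -0.12 ± 0.10 (Tgfb1) and 0.08 ± 0.07 (Tgfbr1), with adjusted p from 0.601 to 0.874. The Tgfb2 ranges overlapped (exact permutation p = 0.6). Of the calls over all genes 55.1% were higher, and 43.8% when scaled without mitochondrial and the top 50 genes.

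Between the KO and WT co-cultures with the inhibitor, 1 of the 8 genes passed, where 2.31% of all genes did, 1.66% higher and 0.649% lower. Tgfb3 was higher beside KO cells (log2 fold change 0.37 ± 0.06, adjusted p = 0.00414 by limma), and every KO library lay above every WT library. Thbs1 pointed the other way without passing (-0.21 ± 0.07, adjusted p = 0.206), again with no overlap. Tgfb2 was 1.34 times as high beside KO cells, with no overlap (exact permutation p = 0.0571, the smallest this design allows). The test of whether the inhibitor effect differed by genotype called 0 of the 8 genes by limma and 0 by voom, where 0.816% of all genes were called by limma, 0.535% higher and 0.281% lower. At an unadjusted p under 0.05 there were 2 genes by limma, Tgfb3 and Thbs1 (-0.26 ± 0.11, adjusted p = 0.383), and 1 by voom. Of these calls over all genes 65.6% were higher, and 77.3% when scaled without mitochondrial and the top 50 genes.

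The wider pathway was described over 8 lists of 135 other genes, of which 85 were tested. The lists were drawn up from knowledge of the pathway with earlier results of these data known. In KO co-culture against monoculture 18 of the 85 rose, 49 fell and 18 did not pass (median log2 fold change -0.29), and in WT co-culture 14 rose, 47 fell and 24 did not pass (median -0.28). With the inhibitor 45 rose, 21 fell and 19 did not pass beside KO cells (median 0.17), and 39, 24 and 22 beside WT cells (median 0.15). Over all genes tested, 30.3% rose and 31.2% fell in KO co-culture against monoculture, and 30.1% and 31.9% in WT co-culture. With the inhibitor 34.8% rose and 34.7% fell beside KO cells, and 33.5% and 33.0% beside WT cells. These shares belong beside every list count below, and counts near them do not set a list apart. The medians over all genes are those given above.

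Canonical target genes are known from other cells to be switched by TGF-beta. Of 29 tested, 2 rose and 25 fell in both KO and WT co-culture against monoculture, with medians of -0.96 and -0.99. The matricellular gene Cyr61 averaged 80.7 ± 3.55 FPKM in KO co-culture with the inhibitor, 64.3 ± 0.980 in WT co-culture with it, 9.48 ± 0.575 in KO co-culture, 10.5 ± 0.818 in WT co-culture and 275 ± 2.41 in monoculture (SD, n = 4 for the first group and 3 for the others). Like Thbs1 it was highest in monoculture and lowest in co-culture without the inhibitor, and it fell by 4.72 in KO and by 4.59 in WT co-culture on the log2 scale. Ctgf, of the same family (-1.77 and -1.86), and the helix-loop-helix regulator Id3 (-2.72 and -2.47) fell likewise. The rises were the cell cycle inhibitor Cdkn2b (1.35 and 1.64) and the repressor Snai2 (1.20 and 1.17). The epithelial and hepatocyte marker sums given beside the receptors were also lowest in co-culture without the inhibitor, and their part in the target genes' values was not tested.

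With the inhibitor 20 targets rose and 6 fell beside KO cells, and 18 rose and 6 fell beside WT cells, with medians of 0.46 and 0.32. Cyr61 (2.96 beside KO and 2.51 beside WT cells) and the clock-linked repressor Bhlhe40 (2.38 and 2.44) were among the largest rises. The cytokine Il11 (-1.51 and -2.48), Cdkn2b (-1.33 and -1.34) and the small GTPase gene Rhob (-1.03 and -1.22) led the falls. The target Tgfbi was listed at 0 in all libraries. Relative to monoculture, targets were not alike in the inhibitor groups: fibronectin Fn1 was higher by 1.47 in the KO and 1.37 in the WT inhibitor group, whereas Ctgf was lower (-0.85 in both).

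**Figure D4:**
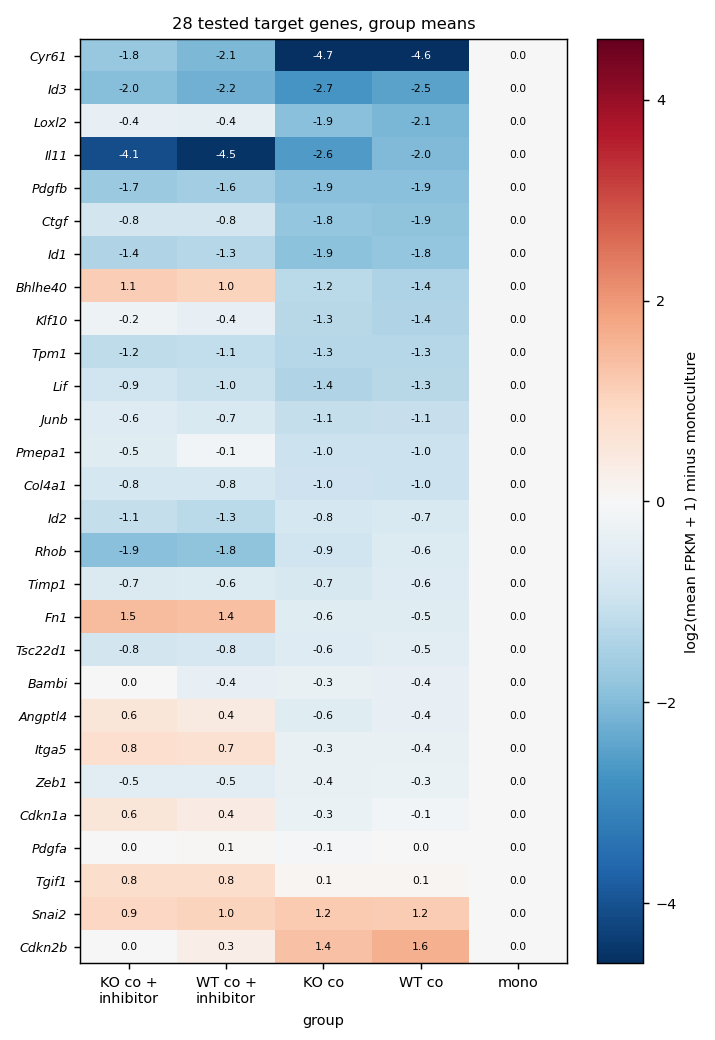
Heat map of 28 of the 29 tested canonical target genes (rows) by group (columns, KO co-culture with the inhibitor on the left to monoculture on the right), coloured by log2(mean FPKM + 1) minus that of monoculture. Most rows are blue (lower than monoculture) in the KO and WT co-cultures that lacked the inhibitor, while Tgif1, Snai2 and Cdkn2b are above 0 there, and rows such as Fn1 and Bhlhe40 are red with the inhibitor.

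Of 12 tested genes for holding and releasing latent ligand, 5 rose and 7 fell in both KO and WT co-culture against monoculture. The integrin subunit Itgav averaged 19.6 ± 0.199 FPKM in KO co-culture with the inhibitor, 20.1 ± 0.871 in WT co-culture with it, 10.01 ± 0.930 in KO co-culture, 8.86 ± 0.610 in WT co-culture and 19.5 ± 1.13 in monoculture (SD, n as above). It was low in co-culture without the inhibitor alone, a fall of 0.90 beside KO and 1.06 beside WT cells. Its partner Itgb6, which with Itgav activates latent TGF-beta in epithelia, was under the filter at 1.41, 1.21, 0.00943, 0.0405 and 1.67 FPKM in the same order. The processing protease Furin fell by 0.57 and 0.63 in KO and WT co-culture, while its relative Pcsk6 rose by 2.07 and 2.15. The latent TGF-beta binding protein Ltbp1 fell by 1.10 and 0.80, and Ltbp4 rose by 1.21 and 1.63. With the inhibitor 6 of these genes rose and 2 fell beside KO cells, and 5 rose and 6 fell beside WT cells. The plasminogen activator genes Plat (2.61 and 2.47) and Plau (1.20 and 1.25) and the integrin gene Itgb3 (1.34 and 1.43) rose the most.

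Among the other SMADs, Smad2 did not pass in any of the 9 comparisons, at 19.4 to 21.3 FPKM in the group means, and Smad4 rose with the inhibitor, by 0.22 beside KO and 0.27 beside WT cells. Smad1, Smad5 and the inhibitory Smad6, which mainly serve the bone morphogenetic protein branch, fell in KO co-culture (-0.45, -0.55 and -1.17) and in WT co-culture (-0.43, -0.60 and -1.03). With the inhibitor none of these 3 passed against the same co-culture by limma. Of 14 negative regulators, 2 rose and 6 fell in KO co-culture and 1 rose and 6 fell in WT co-culture, and with the inhibitor 8 rose and 2 fell beside KO and 7 rose and 2 fell beside WT cells. Ski, the paralog of Skil, fell by 0.29 in KO and 0.36 in WT co-culture and rose by 0.33 and 0.42 with the inhibitor. The ubiquitin ligase gene Nedd4l (0.80 beside KO and 0.81 beside WT cells) and Fkbp1a (0.77 and 0.80), whose product binds the type I receptor, rose with the inhibitor, and Dact2 fell the most in this list (-1.60 and -1.22). Of 13 positive regulators, 6 rose and 4 fell in KO co-culture and 2 rose and 2 fell in WT co-culture. The same list had 6 rises and 5 falls with the inhibitor beside KO cells, and 5 and 6 beside WT cells. The adaptor gene Dab2 fell by 1.89 in KO and 1.94 in WT co-culture.

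Of 9 further receptors, 3 rose and 2 fell in KO co-culture and 4 rose and 2 fell in WT co-culture. Tgfbr3, the coreceptor betaglycan, was under the filter in all groups, at 0.0824, 0.0843, 0.477, 0.370 and 0.821 FPKM in the order used for Itgav. Of 4 tested ligands of the wider family, 3 fell in each co-culture against monoculture, among them the activin subunit gene Inhbb (-2.10 in KO and -1.90 in WT co-culture) and Bmp4 (-1.43 and -1.49). With the inhibitor Inhbb rose by 0.77 and 0.70. Of 2 tested antagonists, Fstl3 fell by 0.99 and 0.97 in co-culture and rose by 1.14 and 1.08 with the inhibitor, and Lefty1 fell by 0.77 and 0.67 with it.

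Between KO and WT co-culture 0 of the 85 pathway genes rose and 7 fell, where 1.65% of all genes were higher and 1.34% lower. Among the 7 were Ltbp4 (-0.42), Rhob (-0.28), Ltbp1 (-0.30), Cdkn2b (-0.29), Gdf15 (-0.41) and Il11 (-0.57). In a fit of the 6 libraries compared alone, all 7 calls ended (adjusted p from 0.135 to 0.383 by limma). Rhob was named because the count is small, after its value was seen. With the inhibitor, Cyr61 (0.32) and the pseudoreceptor Bambi (0.37) were higher beside KO than beside WT cells, and Pmepa1, which encodes a feedback inhibitor of SMAD signalling, was lower (-0.40 ± 0.04, adjusted p = 1.22e-04). Cdkn2b was also lower (-0.27), a call that ended under several alternatives. The inhibitor effect differed by genotype for 6 of the 85 by limma, where 0.816% of all genes were called. Pmepa1 (-0.40 ± 0.06, adjusted p = 0.00572) and Cyr61 (0.45 ± 0.07, adjusted p = 0.0103) passed in every alternative, and Gdf15, Ltbp4, Cdkn1a and Il11 in some.

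For the genes whose group means spanned at least 1 on the log2 scale (Tgfbr1, Tgfb3 and Thbs1), the 3 protein-coding genes with the nearest profile over the 5 group means were found, by the root mean square difference of centred log2 values. Nearest to Tgfbr1 were the keratin gene Krt7 (0.0423), the mitochondrial carrier gene Slc25a48 (0.0435) and Dlk2 (0.0941). Krt7 is also one of the epithelial markers above, at 7.63, 7.86, 0.551, 0.580 and 4.26 FPKM in the order used for Itgav. Nearest to Thbs1 were the DNA replication genes Mcm4 (0.0636) and Lig1 (0.0726), and Cdc42ep2 (0.0737). Nearest to Tgfb3 were the phosphatase gene Dusp14 (0.137), Ier5l (0.144) and the serpin gene Serpina3g (0.150), a looser match. These values describe 5 points per gene, and the groups share libraries with the results above.

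Strandedness of the counting is not given in the sources used here, so reads from genes on opposite strands of 1 locus cannot be told apart. Tgfb3 overlaps Ttll5 on the opposite strand, which averaged 0.850, 0.901, 0.686, 0.653 and 1.50 FPKM in the order used for Itgav. The other overlapping genes of Tgfb2, Tgfb3 and Thbs1 were at or near 0.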

How the data were processed

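RNA of 16 hepatocyte libraries in 5 groups was extracted with an RNeasy kit and sequenced by Novogene, per the labels' protocols. The submitters' processing notes name HISAT2 and the build GRCm38 (mm10). No source used here gives its version, the counting tool or the use of strand. The authors deposited 1 table of FPKM, fragments per kilobase of gene and M fragments, for 54532 genes. FPKM steps gave whole fragments for 100% of values within 0.1 of a whole number, and these gave depths of 15.002 to 21.3 M per library, where 1 fragment in a gene of 1 kb is worth 0.0457 to 0.0648 FPKM. The recovered total over the divisor behind FPKM was 1.025 to 1.028 in monoculture and 0.997 to 1.009 in co-culture without the inhibitor. It was 0.970 to 0.974 with the inhibitor, so small differences between these groups carry this shift. The voom alternative used the recovered totals.

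The 9 genes and the pathway lists were chosen with earlier results of these data known. Values were taken as log2(FPKM + 1), with the mean over libraries at least 1 FPKM (11395 genes). limma 3.58.1 in R 4.3.3 was fitted with 1 mean per group over all 16 libraries and an intensity trend, which leaves 11 residual degrees of freedom. The Benjamini-Hochberg adjustment ran over all genes tested in each comparison, and calls were made under 0.05. The fit was tested on simulated data. Tgfb2, under the filter, was compared by exact two-sided permutation of libraries (SciPy 1.17.1). All 9 genes were described, and from each pathway list every tested gene where at most 6 were tested, otherwise the 3 largest rises and falls past the threshold and 19 genes listed by name. RefSeq supplied promoter windows. Whether replicate numbers pair libraries is not in the labels, and the main fit used no pairing. Over 30 pairs of same-numbered libraries the correlation of deviations ran from -0.300 to 0.270, median 0.0104, with 7 over 0.1. Alternatives were a pseudocount of 0.1, no filter on the mean, the compared groups alone, a replicate block, quantile normalization, 2 other scalings, voom weights, no intensity trend and leaving out each library. Of the target genes 1 is counted in its list and not reported here by name.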

Additional observations from a re-analysis of the deposited data

Results flagged for a closer look

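Skil in KO co-culture with the inhibitor had 1 library apart from the others. Replicate 2 read 12.1 FPKM, and the other 3 read 13.2 to 13.4 FPKM. Its gap to the nearest library was 0.873 of the group's range, above Dixon's 95% critical value for 4 libraries. All 9 genes were tested in this group, and the next largest ratio was 0.648 (Tgfbr2). Chance flags about 1 in 20 groups tested in this way, so a flag among 9 genes is not rare.

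Tgfb3 moved in opposite directions with the inhibitor by the genotype of the cancer cells. Every library with the inhibitor lay above every library without it beside KO cells, and below every one beside WT cells. The difference between both effects was 0.333 on the log2 scale and did not pass (adjusted p = 0.105 by limma). The KO effect turned to -0.0088 under quantile normalization.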

How the results depend on the processing

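The number of the 8 tested genes called stayed within 1.5 times its main value in all 145 alternatives, and of 44 called fold changes 40 passed in every one. Tgfb3 with the inhibitor beside KO cells turned to -0.0088 (adjusted p = 0.904) under quantile normalization, and was 0.16 with adjusted p = 0.0566 when the compared groups alone were fitted. With a replicate block it was 0.14 (adjusted p = 0.0860), so 7 genes in place of 8 were called there, and the block changed no other call of these genes. Only KO co-culture with the inhibitor has a replicate 4, which the block therefore fits by itself. The value without that library was also 0.14 (adjusted p = 0.0635 by limma). Tgfb3 with the inhibitor beside WT cells lost its call with the compared groups alone (adjusted p = 0.105) and with voom (0.152). Tgfb1 in WT co-culture with the inhibitor against monoculture lost it when scaled without mitochondrial and the top 50 genes (0.0686) and with voom (0.0773), as did Skil in KO co-culture with the inhibitor (0.216 and 0.0567). Tgfb1 in WT co-culture against monoculture passed under that scaling (0.22, adjusted p = 0.0474). Uncalled values that crossed 0 when single libraries were left out ranged, on the log2 scale, as follows. Against monoculture, Tgfb1 in KO co-culture ran from -0.0077 to 0.12. Between KO and WT co-culture, Tgfb3 ran from -0.017 to 0.089, Smad7 from -0.041 to 0.11, Skil from -0.097 to 0.046 and Thbs1 from -0.017 to 0.11. With the inhibitor, Smad7 between KO and WT ran from -0.017 to 0.074. The difference in inhibitor effect by genotype ran from -0.066 to 0.19 for Tgfb1, -0.088 to 0.066 for Smad7 and -0.096 to 0.046 for Skil, which was 0.0052 when scaled without mitochondrial and the top 50 genes. Over all genes, 341 were called between KO and WT co-culture, against 17 with these groups alone. The genotype difference in inhibitor effect called 93, against 41 with the compared groups alone, 34 with the block and 60 with no filter. Of 1160 alternative values for the pathway lists, 1073 stayed within 1.5 times the main count. Depth limits Tgfb2 and Thbs1 in co-culture. The causes were not tested.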
